A study of Mus musculus with 16 samples.

Results

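The sites described here are intergenic stretches of the mouse genome at which BMAL1 was called bound in the liver library of male misaligned mice at ZT12, and in no other BMAL1 library of the study. They were taken from the authors' merged table of sites by 3 conditions: a call in male misaligned ZT12, a call in only 1 library, and an annotation as intergenic. The rule found 1140 sites among 7043 intervals, which is 16.2% of all intervals, and 20.6% of the 5540 intervals called in that library. Each of the 1140 sites held a single peak. Because the calls themselves chose the sites, their strength and the fact that no other library had them are given as descriptions, with no test.

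BMAL1 pairs with CLOCK and binds E-boxes, short DNA elements with the letters CACGTG, and the pair switches on genes of the circadian clock, including those for the PER and CRY repressors that later shut it off. In liver BMAL1 also binds near genes of glucose, lipid and bile acid metabolism, and many of its sites lie at enhancers far from any gene start, where hepatocyte transcription factors bind as well. Intergenic sites of this kind have no promoter to name their target, so the nearest gene below is a position label and not a target.

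Chromatin was prepared from liver of C57bl6 mice aged 8 to 16 weeks, kept in 12 h of light and 12 h of dark and fed a diet with 42% of calories from fat from the start of the paradigm onward. Each library pooled formaldehyde-fixed liver of 3 to 4 mice, and was precipitated with the D2L7G antibody against Bmal1. The 8 BMAL1 libraries were male and female, control and misaligned, each at ZT0 (lights on) and ZT12 (lights off), and 8 IgG libraries were not used here. The labels do not give the misalignment schedule. Each group had 1 library, so no difference between groups could be set against replicate error, and sex, treatment, time and the preparation of that library cannot be told apart. Read depth was not given. The lowest local background among the peaks of a list ran from 4.25 fragments in male misaligned ZT12 to 6.16 fragments in male control ZT0. It is not a measure of depth, since it rests on called peaks only and on peak-calling settings that are not given. Peak lists held 141 to 5542 peaks, and the list of male misaligned ZT12 was the longest, ahead of 1864 peaks in male misaligned ZT0.

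The sequence under a site could be read for 20 of the 1140 sites, those whose summit fell in a RefSeq promoter window (250 bases before to 50 bases after a gene start). Most of these windows belong to long non-coding RNAs of RefSeq, at places where the authors' annotation put no gene. These 20 are a selected few, close to a RefSeq gene start by construction. Letters within 50 bases of the summit are printed 5′ to 3′ on the plus strand of GRCm38, from RefSeq's promoter table of GRCm38.p6, clipped where the window ends. Both sites with an E-box are shown because the E-box is the element that BMAL1 reads, and capitals mark it. The first lies before Tfdp1, which encodes a partner of the E2F cell cycle factors, at chr8:13338501-13338552, and the second before the non-coding Gm30327 at chr1:153990972-153991072.
Tfdp1: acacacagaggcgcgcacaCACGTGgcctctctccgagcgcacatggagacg
Gm30327: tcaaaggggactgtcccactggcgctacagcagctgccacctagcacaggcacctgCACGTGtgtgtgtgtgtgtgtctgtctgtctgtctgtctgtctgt

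The E-box began 18 bases after the summit at Tfdp1 and 6 bases after it at Gm30327. The Tfdp1 site had a -log10 q of 9.26 with 48 fragments at the summit, and the Gm30327 site had a -log10 q of 8.24 with 27 fragments. Neither was among the strongest of the 20 sites. The strongest, at the non-coding Gm35028, had a -log10 q of 26.4 and no E-box, and its letters at chr10:44428070-44428170 are printed for that contrast, with no capitals.
Gm35028: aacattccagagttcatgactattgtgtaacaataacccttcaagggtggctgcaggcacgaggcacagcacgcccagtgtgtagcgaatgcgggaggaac

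The next 3 sequences are shown because they carry letters read by other regulators of liver genes. Capitals mark AGGTCA or its reverse complement, the core read by ROR, REV-ERB and other nuclear receptors, at 5033421B08Rik (chr12:8511039-8511139, nearest to Rhob) and at Gm36599 (chr4:133008145-133008245, nearest to Ahdc1). At Gm40574 (chr12:110024553-110024653, nearest to Mir1247) they mark the reverse complement of TGTTTAC, the forkhead element of FOXA pioneer factors.
5033421B08Rik: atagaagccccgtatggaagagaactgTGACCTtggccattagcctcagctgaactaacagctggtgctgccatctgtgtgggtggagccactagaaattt
Gm36599: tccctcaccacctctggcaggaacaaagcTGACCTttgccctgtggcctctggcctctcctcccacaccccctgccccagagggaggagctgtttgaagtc
Gm40574: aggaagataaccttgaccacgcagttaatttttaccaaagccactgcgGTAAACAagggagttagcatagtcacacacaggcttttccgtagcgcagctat

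Within 100 bases of the summit, on either strand, 2 of the 20 sites held CACGTG, which is 10% (exact 95% interval 1.23% to 31.7%, counting error only). In promoter windows of other sites called in this library alone the E-box stood at 115 of 522, or 22.0% (18.5% to 25.8%). The share was 32.5% of 191 sites called in 2 libraries, 36.6% of 131 called in 3 to 4, and 54.1% of 61 called in 5 to 8. Of all 32851 RefSeq promoter windows, 4.19% held it at the same positions. The interval for the 20 sites holds both that share and the share of the other single-library sites, so at this number of sites neither can be told from theirs. A second form, CACGTT, was at 0 of the 20 (up to 16.8%). A pair of E-boxes spaced by 6 or 7 bases, the arrangement bound by tandem CLOCK-BMAL1 dimers, was at 0 of the 20 as well, and at 0.00761% of all windows. AGGTCA was at 6 of the 20 (30%, 11.9% to 54.3%) against 9.71% of all windows. Within 50 bases it was at 3 of 20 (15%, 3.21% to 37.9%) against 5.22%, and at a -log10 q of at least 3 at 4 of 17 (23.5%, 6.81% to 49.9%) against 9.45%, so both of these intervals take in the share of all windows. TGTTTAC was at 2 of the 20 (10%) against 2.13%, and TTGCG, the core of the C/EBP element, at 2 (10%) against 10.6%. These matches describe the letters and are not shown to be bound.

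**Figure D1:**
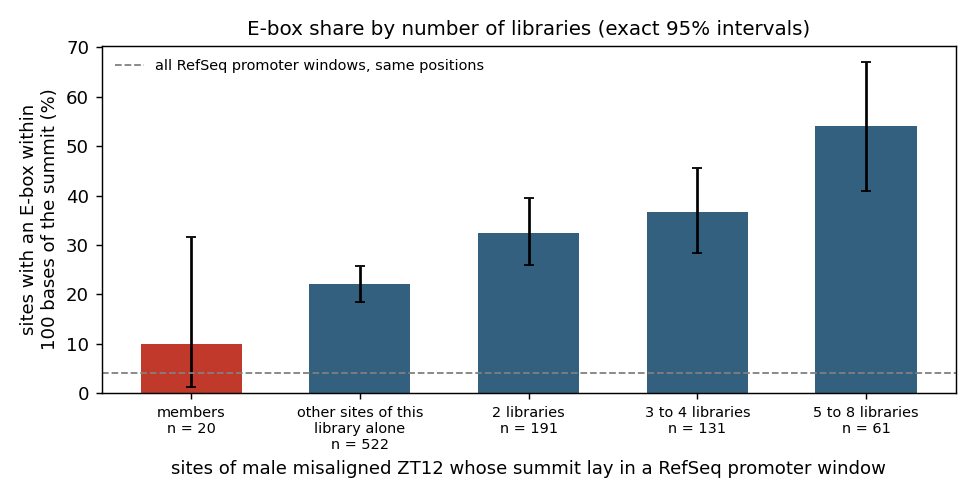
Percentage of sites with CACGTG within 100 bases of the summit (bars, with exact 95% intervals) among sites of male misaligned ZT12 whose summit fell in a RefSeq promoter window, by the number of libraries that called the site. The red bar stands for the 20 intergenic single-library sites (10%), the blue bars rise from 22.0% to 54.1%, and the dashed line is the share in all promoter windows (4.19%).

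Within 2 kb of a hairpin in RefSeq's microRNA table stood 1 site. It lay at chr6:51270910-51271354, 1000 bases from the Mir148a hairpin, with a -log10 q of 15.5, a fold enrichment of 6.14, and 37 fragments at the summit over a background of 5.19. miR-148a is abundant in liver and is known for acting on the LDL receptor transcript. Its 2 mature strands, from RefSeq, are printed because they are what the gene yields, with the seed (bases 2 to 8) in capitals.
miR-148a-3p: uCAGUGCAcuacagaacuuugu
miR-148a-5p: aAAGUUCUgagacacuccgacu

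The sites were weak beside the intergenic sites that this library shared with others. A summit's fragments are the number of sequenced fragments overlapping its highest point, local background is what the peak caller expected there, and the fold enrichment is the ratio of the 2 after adding 1 to each. The median -log10 q was 4.27 (95% interval of the median 4.07 to 4.55), with quartiles of 2.89 and 7.55 and a range of 1.33 to 41.6. The median site had 24 fragments over a background of 5.67, a fold enrichment of 3.57 and a width of 366.5 bp. Fragments ran from 14 to 68, with quartiles of 19 and 30, so most calls rested on a small number of fragments.

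Of the 240 intergenic sites of male misaligned ZT12 called in other libraries too, 152 were in 2 libraries, with a median -log10 q of 10.9 and 38 fragments in male misaligned ZT12. The 64 sites in 3 to 4 libraries had a median of 23.9, and the 24 sites in 5 to 8 libraries had a median of 55.6. The number of libraries that called an intergenic site thus went with its strength in male misaligned ZT12. In the other library of the 152 sites called in 2, the median -log10 q was 4.97. Single-library sites of other kinds lay near the 1140, at 5.04 for 1083 promoter sites and 4.07 for 1537 intron sites. Ranked among all 5542 peaks of the list, the median of the 1140 was 3397.5 and the best was 220. They held 92 of the 1000 strongest peaks and 0 of the 100 strongest. None stood on a local background of 5 times the lowest of the list or more, the highest being 3.66 times.

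**Figure D2:**
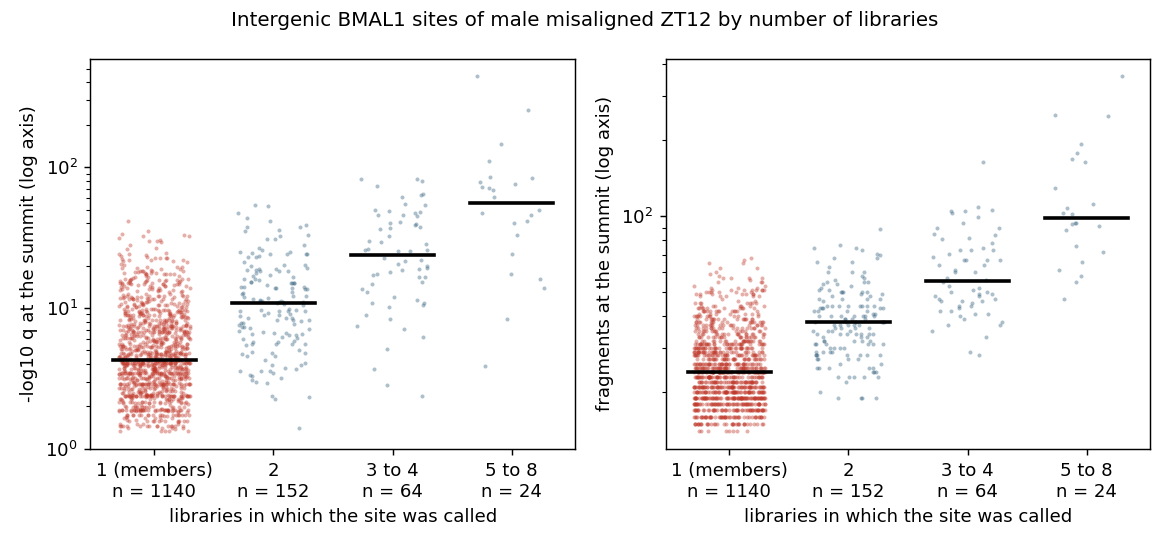
Each point is an intergenic site of male misaligned ZT12, by the number of libraries that called it, with -log10 q (left) and fragments at the summit (right) on log axes and medians as black lines. The 1140 sites called there alone (red) have medians of 4.27 and 24, and the medians rise with each group of shared sites to 55.6 for those in 5 to 8 libraries.

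At the weak end, 3 sites shared the lowest -log10 q of 1.33, with 20 fragments over 7.80. They were nearest to the pseudogene RP23-254F12.1, to P4ha1, a subunit of the enzyme that hydroxylates collagen prolines, and to Dynlrb2, a dynein light chain. Next came sites nearest to Gm15271 and to Myl2, a cardiac myosin light chain, both at 1.34 with 15 fragments. Just outside the rule stood the intergenic sites called in 2 libraries, whose lowest value in male misaligned ZT12 was 1.40. A single further call in another library would have moved a site across that line, and no value is listed for a library in which a site was not called.

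Every other library also had intergenic sites of its own, in far smaller numbers. They numbered 188 of 807 single-library sites in male misaligned ZT0, or 23.3% (20.4% to 26.4%). In male misaligned ZT12 the share was 1140 of 4106, or 27.8% (26.4% to 29.2%), and in female misaligned ZT0 it was 66 of 396, or 16.7% (13.1% to 20.7%). The interval of male misaligned ZT12 begins where that of male misaligned ZT0 ends, and lies above that of female misaligned ZT0, by counting error alone. Male control ZT12 had 21 of 46 (45.7%, 30.9% to 61.0%), the highest share, with few sites behind it. At a -log10 q of at least 3 the highest was male control ZT0, with 40% of 10 sites against 38.7% of 31. Female control ZT0 had 24 of 109, female misaligned ZT12 had 6 of 29, male control ZT0 had 5 of 18, and female control ZT12 had 4 of 15. The 1140 were thus many more than in any other library, while their share of the library's own sites lay among the shares of the others. When the list was shortened to its 1864 strongest peaks, the length of the second longest list, 246 of the 1140 were left.

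**Figure D3:**
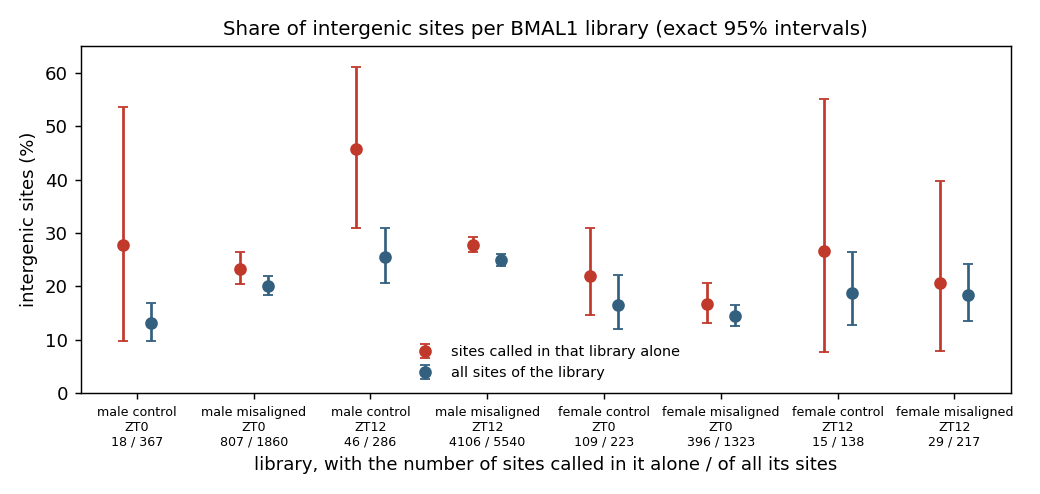
Percentage of sites annotated as intergenic in each BMAL1 library, among sites called in that library alone (red) and among all its sites (blue), with exact 95% intervals that cover counting error only. The numbers under each name are the single-library and all sites, and the single-library share runs from 16.7% in female misaligned ZT0 to 45.7% in male control ZT12.

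The sites were spread over long distances from gene starts. The median distance to the authors' nearest TSS was 20.1 kb, with quartiles of 8.13 kb and 42.8 kb, against 16.3 kb for the 240 shared intergenic sites. Within 10 kb of a TSS stood 356 sites, or 31.2% (28.5% to 34.0%), against 32.5% of the shared ones. Within 5 kb stood 163 sites, within 50 kb 895, and 99 were over 100 kb away. By distance, then, single-library and shared intergenic sites could hardly be told apart. Upstream of the nearest TSS were 675 sites, 59.2% (56.3% to 62.1%), against 67.9% (61.6% to 73.8%) of the shared ones, and these intervals overlap slightly.

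**Figure D4:**
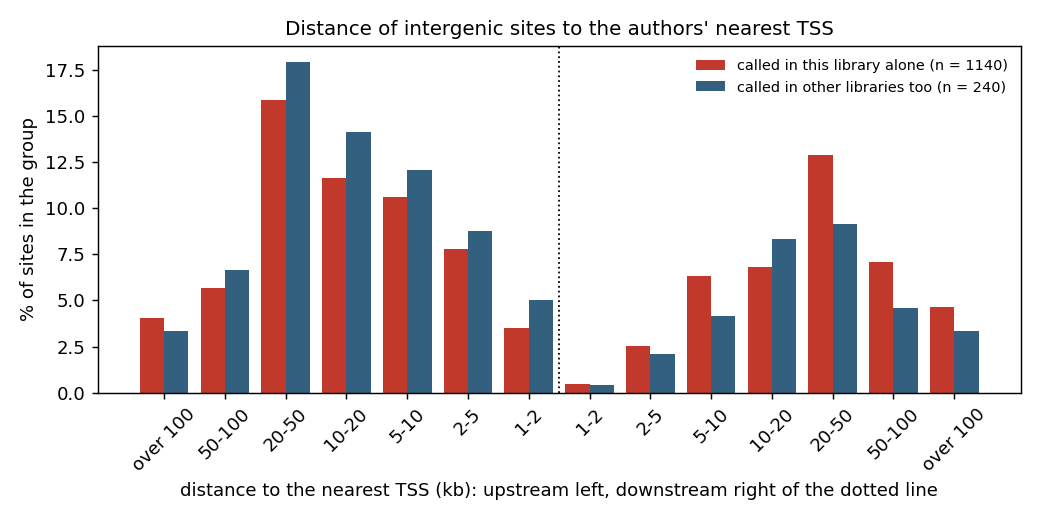
Percentage of intergenic sites of male misaligned ZT12 in bins of distance to the authors' nearest TSS, upstream to the left and downstream to the right of the dotted line, for the 1140 sites called there alone (red) and the 240 shared sites (blue). In both groups the fullest bin is 20 to 50 kb upstream, with 15.9% and 17.9% of the sites.

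The 5 sites nearest to a TSS were 1005 bp to 1084 bp upstream. They belonged to Prpf4b, a splicing kinase (-log10 q 4.22), Rnd1, a small GTPase (4.76), Jund, a subunit of the AP-1 factor (3.30), Rpl17, a ribosomal protein (4.77), and the microRNA gene Gm23158 (17.5). The last of these is also 3.34 kb from Nr0b2, whose protein SHP is a nuclear receptor without a DNA-binding domain that represses bile acid synthesis. It had 41 fragments over 5.71 at chr4:133559892-133560174, and was the strongest of the 5. By RefSeq the Rpl17 site lay inside that gene. At the other end, the farthest site was 792 kb from the small RNA gene Gm26058, with a -log10 q of 1.89. Another was 600 kb upstream of Cdh5, the cadherin of endothelial junctions (2.48), and another 584 kb from Mir1907 (3.23). A pair near Gm22958, 410 kb and 411 kb away, was stronger, at 8.35 and 14.6. Weaker and stronger sites thus stood at both ends of the range of distances.

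The annotation of a site as intergenic depended on the gene models. By RefSeq, 249 of the 1140 summits (21.8%) lay inside a gene, 181 of them in a long non-coding RNA gene and 67 in a protein-coding gene, and 833 were over 1 kb from any gene. The authors' nearest gene was protein-coding for 621 sites (54.5%), a lincRNA for 134, a processed pseudogene for 128, an snRNA for 55 and a microRNA for 49. It was also the nearest RefSeq protein-coding gene for 470 sites. The sites named 996 nearest genes, 540 of them protein-coding. At 106 sites (9.30%, 7.68% to 11.1%) the nearest gene also had a promoter site in male misaligned ZT12, against 37 of the 240 shared sites (15.4%, 11.1% to 20.6%). For most sites no call at the promoter of the nearest gene went with the distal call. Intron sites called in this library alone were similar, with 162 of 1537 (10.5%, 9.05% to 12.2%). The share over all genes was not computed, so the 9.30% cannot be read as particular to these sites.

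The strongest site lay at chr12:52396280-52396777, 119.5 kb upstream of Arhgap5, which encodes a GTPase-activating protein. It had 62 fragments over 4.81, a fold enrichment of 10.8 and a -log10 q of 41.6. By RefSeq the protein-coding gene nearest to it was Nubpl, 85.6 kb away. The second, at chr19:36712975-36713548, stood 23.4 kb from the TSS of Ppp1r3c, which directs protein phosphatase 1 to glycogen, with 67 fragments over 7.53 and a -log10 q of 35.3. The third, at chr15:81836406-81836875, was nearest to Gm8444 and 9.71 kb from Tef, a clock-driven PAR bZIP factor, with 68 fragments over 8.30 and a -log10 q of 33.7. These 62 to 68 fragments compare with an upper quartile of 30 in the set, yet the 3 sites ranked 220, 294 and 312 in the whole list.

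The other 7 of the 10 strongest sites had -log10 q from 29.8 to 33.1. They were nearest to Slc17a8, a vesicular glutamate transporter (55 fragments), the snRNA gene Gm22808 (65) and Fam107a (58). Others were nearest to Slc13a2, a carrier of dicarboxylates and citrate (50), 9330182O14Rik (52), Tns4, a tensin (57), and Eif1a, a translation initiation factor (57). The distances of these 7 sites from the TSS ran from 5.71 kb at Slc13a2 to 37.7 kb at Eif1a. Apart from Ppp1r3c, none of these labels is a gene of the metabolic or clock lists below.

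Genes of glucose metabolism and insulin signalling had sites near several of their members. Within 100 kb of its TSS, 7 of 19 listed genes were the nearest gene of a site, where 2.18% of 21887 RefSeq protein-coding genes were. They were Ppp1r3c (above), Irs2, Igfbp1, Ppargc1a, G6pc, Insr and Ppp1r3b. With a -log10 q of at least 3 it was 5 of 19, against 1.66%, and within 10 kb it was 2 of 19 (10.5%), against 0.8%. The list had the highest share within 100 kb, but within 10 kb the male-biased (15.4%) and female-biased (13.3%) lists were higher, as were hepatocyte transcription factors (43.8%) by the RefSeq rule below. The lists were chosen with earlier results of these data known, and these counts are a description.

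Irs2, the adaptor of the insulin receptor in liver, had its site 34.1 kb from the TSS, with 30 fragments over 5.02 and a -log10 q of 10.3. Igfbp1, a secreted binding protein for insulin-like growth factors whose gene insulin represses, had 2 sites 3.05 kb and 4.84 kb upstream, with -log10 q of 9.33 and 4.21 and 34 and 21 fragments. G6pc, the last enzyme of glucose output, also had 2, at 4.75 kb and 2.90 kb upstream, with -log10 q of 6.25 and 4.97. Paired upstream sites a few kb from the TSS were thus seen at both of these fasting genes. Ppargc1a, a coactivator of gluconeogenic genes, had a site 37.9 kb upstream of the authors' TSS (7.02), which by RefSeq lay inside the gene. Those of Insr, the insulin receptor (2.79), and of Ppp1r3b, a glycogen-targeting subunit (2.30), were weak.

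Most of these genes had further BMAL1 sites. At G6pc there was a promoter site in male misaligned ZT12 (5.18) and an intergenic site 11.4 kb downstream of the TSS called in 6 libraries (17.5 in male misaligned ZT12). Irs2 and Ppp1r3c each had a promoter site called in male misaligned ZT12 and female misaligned ZT0, with -log10 q of 25.8 and 12.4 in the former. By contrast, no other interval in the table had Igfbp1 or Ppp1r3b as its nearest gene. Over all lists, 36 genes were nearest to a site at any distance. Of them 19 had another interval, 14 had an interval called in 2 or more libraries, and 12 had a promoter interval. The same counts were not made over all 996 nearest genes, so these cannot be read as particular to the listed genes.

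Of lipogenesis genes, 4 of 19 were nearest within 100 kb, against 2.18% of all protein-coding genes. Lpin1, a phosphatidate phosphatase, had a site of -log10 q 4.52. The others were below 3: Fads2, a fatty acid desaturase, at 2.58, Gpam, which starts glycerolipid synthesis, with 2 sites at 2.48 and 1.74, and Scd1, the stearoyl-CoA desaturase, at 2.27. These sites were thus mostly weak. By RefSeq a further site, of 6.03, lay inside Lpin1, and the authors' table gave it to Ntsr2. By the same gene models the first Gpam site lay inside its gene and the second 0.051 kb from it. Of sterol genes, Mvk, mevalonate kinase, had a site of 2.64, and Stard4, a sterol carrier, had one beyond 100 kb (3.73). Ppara, the fatty acid sensor that drives fatty acid oxidation, was the only one of 17 genes of that list, with a site 12.5 kb upstream (6.78), beside a promoter site called in 6 libraries.

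Of bile acid and xenobiotic genes, 2 of 18 were nearest within 100 kb, against 2.18% of all protein-coding genes. Nr1h4, which encodes the bile acid receptor FXR, had a site 32.1 kb upstream with 33 fragments over 4.75 and a -log10 q of 13.4. Cyp8b1, the sterol 12-alpha-hydroxylase, had a site 9.08 kb upstream (5.28). By the RefSeq rule given below the count was also 2 of 18, with Nr0b2 in place of Nr1h4, whose site lay nearer to Slc17a8.

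Among hepatocyte transcription factors, 2 of 16 were the authors' nearest gene within 100 kb, against 2.18% of all protein-coding genes. They were Cebpa with 2 sites (10.2 and 6.29) and Gata4 with 1 (7.66). The count depended on the gene set. When the nearest RefSeq protein-coding gene body within 100 kb was used, it was 7 of 16, where 3.79% of all protein-coding genes were nearest. That rule added Hnf4a (1.83), Foxa3 (8.90), Onecut1 with 3 sites (14.9, 7.18 and 6.48), Prox1 (5.69) and Xbp1 (12.4), whose sites the authors' table gave to other genes. The site of Foxa3 was 2.52 kb from the gene and that of Onecut1 nearest to it 31.1 kb. The glucose list stayed at 7 of 19 by this rule. It gave Irs2 4 sites, 10.4 kb to 89.8 kb from the gene, and the farthest of them was the strongest, at 14.7.

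Hepatocyte secretory and urea cycle genes gave 2 of 22, against 2.18% of all protein-coding genes. Cps1, the first enzyme of the urea cycle, had a strong site 6.25 kb upstream, at chr1:67116467-67117091, with 51 fragments over 6.38 and a -log10 q of 24.3. Apob, the protein of very-low-density lipoprotein, had 2 sites (5.20 and 5.18) 27.3 kb and 39.6 kb upstream. No other interval of any library had Cps1 or Apob as its nearest gene.

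Inflammation and acute phase genes gave 2 of 19, Socs3, a brake on cytokine receptors (16.1, 41 fragments, 9.39 kb from the TSS), and Saa1, an acute phase protein (1.70). Glucocorticoid response genes gave 2 of 11, Tsc22d3, which encodes the glucocorticoid-induced GILZ (29.2, 48 fragments over 4.25, beside an intergenic site called in 5 libraries at 45.8), and Nr3c1, the receptor itself (1.86). Of immediate early and stress regulators, 2 of 11 qualified, Trib1 and Hif1a. Trib1, a pseudokinase that lowers hepatic lipogenesis, had sites 79.6 kb and 135.8 kb from its TSS (14.2 and 21.6). Hif1a, the oxygen-regulated factor, had 3 sites (14.4, 2.40 and 1.74), of which the second was within 100 kb, at 99.3 kb. By the RefSeq rule the count was also 2 of 11, with Nfe2l2 (3.76) in place of Hif1a. In each of these 3 lists both a strong and a weak site were found. Heat shock genes gave 0 of 10, and 2.18% of all protein-coding genes stands beside each of these counts.

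Genes with a known sex bias in liver were nearest to sites on both sides. Among 13 male-biased genes, 2 qualified, Mup20, a major urinary protein (4.89), and Nudt7, a CoA hydrolase (2.06). Among 15 female-biased genes, 2 qualified as well, the cytochromes Cyp2a4 (7.79) and Cyp2b9 (5.15). All 4 sites were 2.57 kb to 5.56 kb upstream. Mup20, both cytochromes and Saa1 belong to families of near-identical copies, so where their reads came from is uncertain. Of markers of other liver cells, stellate cells gave 0 of 10, Kupffer and myeloid cells 0 of 10, cholangiocytes 0 of 7 (1 of 7 by the RefSeq rule) and lymphocytes 0 of 8. Endothelial cells gave 1 of 12 within 100 kb (0 of 12 by the RefSeq rule), which was Stab2, a scavenger receptor of sinusoidal endothelium (6.17). At 2.18% of all protein-coding genes, lists this short would seldom hold a gene, so these counts say nothing about the markers. A call near a gene does not tell in which cell type BMAL1 was bound.

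**Figure D5:**
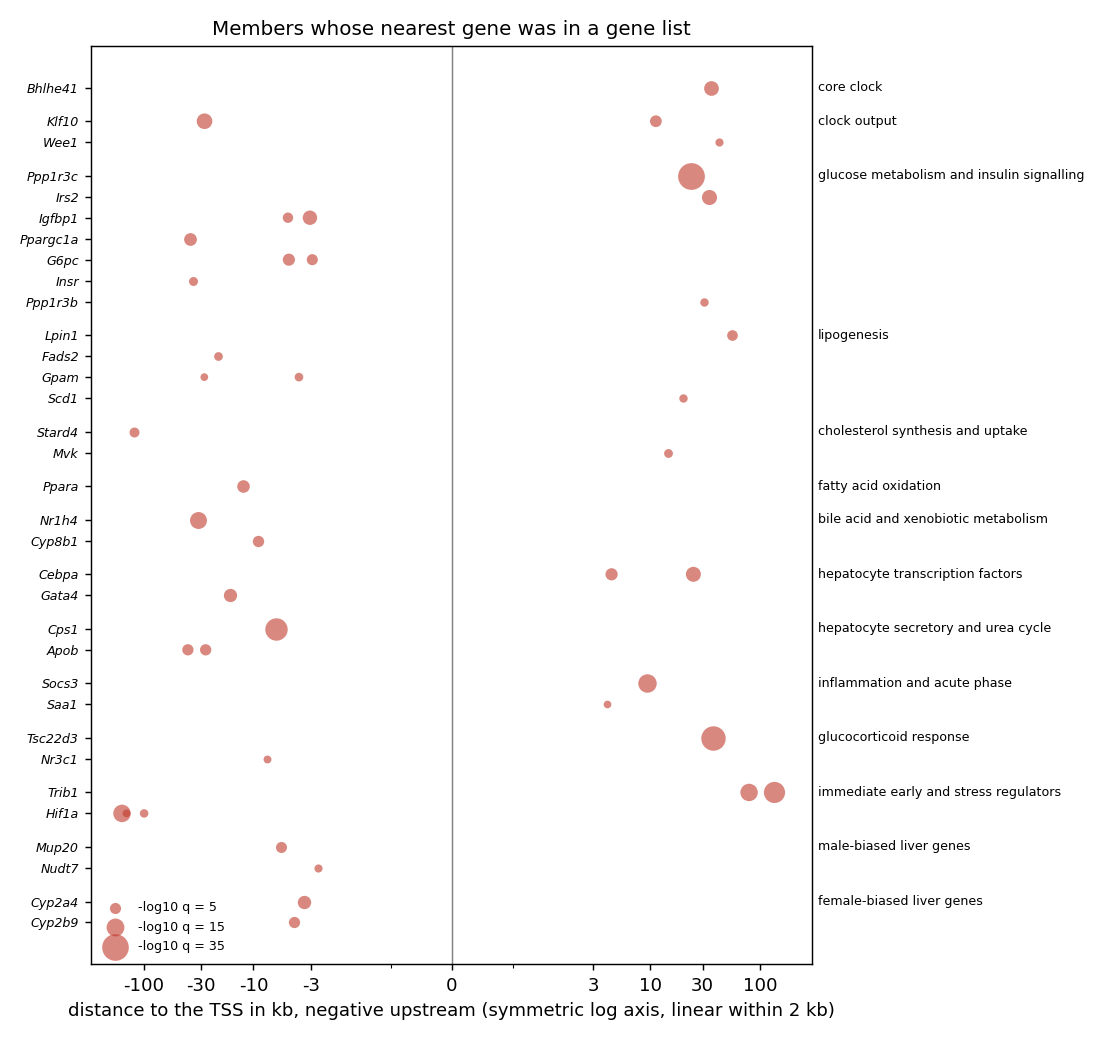
Signed distance to the TSS (symmetric log axis in kb, negative upstream) of sites whose nearest gene was a reported gene of a list, 1 row per gene and grouped by list, with the area of a point growing with -log10 q. Large points stand at Ppp1r3c, Cps1, Tsc22d3 and Trib1, and the lipogenesis genes carry small ones.

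The core clock list had 1 of 22 genes (4.55%) as nearest gene within 100 kb, close to the 2.18% of all protein-coding genes. It was Bhlhe41, which encodes the repressor DEC2. By the RefSeq rule above the count was also 1 of 22, against 3.79%, with Tef in place of Bhlhe41. The Bhlhe41 site, 36.0 kb from the TSS, had 31 fragments over 5.67 and a -log10 q of 9.76. The same gene had 3 shared sites. These were an intergenic site 9.30 kb from the TSS called in 5 libraries (110.6 in male misaligned ZT12), a promoter site called in 2 (48.8), and a weaker intergenic site 42.1 kb from the TSS called in 2 (5.72). By a looser rule, any site within 50 kb of the RefSeq gene body, other clock genes had sites that the authors' table gave to a neighbour. These were Cry2 (12.7 kb, 6.45), Nr1d1 (13.7 kb, 5.42) and Tef (9.71 kb and 13.0 kb, 33.7 and 14.7). The share of all protein-coding genes by this looser rule was not computed, so the 2.18% does not apply to them. Of clock output genes 2 of 12 qualified, Klf10, a TGF-beta-inducible repressor, with 2 sites (11.2 and 5.73), and Wee1, a kinase that delays mitosis (2.08).

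The strongest shared intergenic sites of the library show the contrast. The site 13.0 kb upstream of the authors' TSS of Nr1d1, which encodes REV-ERB-alpha, was called in all 8 libraries. It lay at chr11:98782941-98783909, 8.12 kb from the RefSeq gene body, with a -log10 q of 442 and 358 fragments over 7.53. Hlf (253.6), Ccne1 (146.2), Bhlhe41 (110.6) and Thrsp (85.9) followed, in 5 to 8 libraries. The site near Nr1d1 called in male misaligned ZT12 alone had 33 fragments over 9.65, at chr11:98788808-98789236, 13.7 kb from the RefSeq gene body. In the same library, within a few kb, the shared site thus had 358 fragments and the single-library site 33.

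Sites rarely stood close together. Of the 1140, 123 (10.8%, 9.05% to 12.7%) had another of the 1140 within 10 kb, in 54 pairs and 5 stretches of 3. Counting all sites of the library, 227 (19.9%, 17.6% to 22.4%) had a neighbour within 10 kb, against 31.2% (25.4% to 37.5%) of the 240 shared intergenic sites. The densest stretch was at chr16:87610049-87612833, where 3 sites near Gm22808, inside the RefSeq non-coding gene Gm41485, had -log10 q of 32.6, 7.95 and 17.7 within 2785 bp. Next to Itgb2, the beta-2 integrin, 3 sites that the authors' table gave to Pttg1ip had 1.98, 21.9 and 19.7. Upstream of the authors' TSS of Adcy6, an adenylyl cyclase, 3 had 3.47, 2.91 and 14.0, the first inside the gene by RefSeq. The remaining stretches were at Lppos and between Edaradd and Ero1lb, an endoplasmic reticulum oxidase, with best values of 10.6 and 6.84. In each stretch the strongest site stood beside weaker ones.

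Most nearest genes, 881, had 1 site, 96 had 2, 12 had 3, and 7 had 4 or more. Paqr9, a receptor-like membrane protein, had 5 sites within 21.6 kb of its TSS, all weak (1.40 to 5.31). Vegfa, the vascular endothelial growth factor, had 4, 74.2 kb and 28.0 kb downstream of the TSS and 22.9 kb and 41.8 kb upstream, with -log10 q of 14.7, 6.54, 4.39 and 7.25. Mir1247 was the nearest gene of 5 sites 47.7 kb to 253.4 kb away, with 1.98 to 8.95. Another 4 lay 31.2 kb to 52.6 kb upstream of Eef1a1, a translation elongation factor, with 1.85 to 8.16. By RefSeq the protein-coding gene nearest to these 4 was Slc17a5, 2.96 kb to 24.6 kb away. Gm26397 had 5 sites (2.83 to 9.88), and Gm9002 and Lppos had 4 each. Of the sites at these 7 genes, 1 at Vegfa and 1 at Lppos had a -log10 q over 10. A pair 25.9 kb and 28.1 kb upstream of Mir122, the most abundant microRNA of hepatocytes, had -log10 q of 5.05 and 4.46, and is named here after its values were seen.

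Peaks of other libraries were mostly far away. The nearest one was at a median of 128 kb, 120 sites (10.5%) had one within 10 kb and 19 (1.67%, 1.01% to 2.59%) within 1 kb. Intron sites called in male misaligned ZT12 alone were similar, with a median of 118 kb and 11.8% within 10 kb. Promoter sites called there alone had a median of 114 kb and 9.70% within 10 kb. The distance was thus not particular to intergenic sites. The nearest peak of the 19 intergenic sites was from male misaligned ZT0 for 9 and from female misaligned ZT0 for 7. It was from female control ZT0 for 2 and from male control ZT0 for 1. These libraries differ in how many peaks they hold. The closest were a site nearest to P2ry2, a nucleotide receptor, 24 bp from a peak of male misaligned ZT0 (8.76 here, 1.45 there). One at Gm13536 was 34 bp from a peak of female control ZT0 (3.69 and 3.61), and one at Hpgd, the enzyme that inactivates prostaglandins, was 66 bp from a peak of female misaligned ZT0 (5.61 and 2.62). Those at Gm23233 and RP23-431M7.2 were 100 bp and 175 bp from peaks of female misaligned ZT0. The rule by which the authors merged peaks is not given in the sources used here.

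All 1140 sites were on the chromosomes 1 to 19 and X. Chromosome X had 8 of them, 0.702% (0.303% to 1.38%), where it has 4.41% of RefSeq protein-coding genes. The whole list of male misaligned ZT12 was similar, with 0.614% on X, and the other lists had 0% to 1.35%. The site at Tsc22d3, chrX:140510951-140511531, was among these 8.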

How the data were processed

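Of 16 libraries, the 8 BMAL1 libraries were used, each from pooled liver. BWA 0.7.17-r1188, MACS2 2.2.7.1 and the build GRCm38 are named for alignment and peak calling, per the submitters' processing notes. Depth, the threshold on q and any use of IgG as control are not given in the sources used here. The deposited peak lists, 1 per library, hold a score, the fold enrichment as a ratio over local background, and −log10 p and −log10 q by the authors' peak caller. The authors' merged table gives calls per library, annotation and nearest gene, and its 48 other per-library columns were not used.

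Fragments and background at each summit were recovered from fold and −log10 p within a relative tolerance of 0.0001, for 100% of peaks, and of 1000 simulated peaks. These values depend on depth and were compared within a list. Coordinates are 1-based.

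The sites and the 20 gene lists were chosen with earlier results of these data known. A listed gene counted when it was the authors' nearest gene of a site within 100 kb. Some results that these rules name are not reported here. Of 540 protein-coding nearest genes, 503 matched RefSeq (GRCm38.p6) by symbol or synonym. Named genes were the 10 strongest sites, up to 4 sites per list, genes with 4 or more sites, the 5 nearest and farthest from a TSS, the 5 densest stretches, the 5 strongest shared intergenic sites, the 5 weakest sites and the 5 closest to another library's peak. Sites of a list beyond its 4 strongest, list genes found by the RefSeq rule, clock genes within 50 kb, Mir148a and Mir122 were added after seeing the data.

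Shares carry exact Clopper-Pearson 95% intervals, and the median's interval is the exact binomial one. Both cover counting error only, since sites are not replicates. No test was made, as each group has 1 library and the calls chose the sites. Motifs were searched in RefSeq promoter windows, as no genome was used. Overlapping windows of opposite strands had the same letters in 1683 of 1683 pairs. Alternatives are listed at the end. Python 3.11.15, pandas 2.3.3, scipy 1.17.1 and matplotlib 3.10.9 were used.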

Additional observations from a re-analysis of the deposited data

How the results depend on the processing

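Of 39 values under alternative settings, 29 stayed within 1.5 times (counts) or within the interval of the reported value. Some of the 29 could not move, as the chromosome filter and the high-background filter each left all 1140 sites. Others stayed because their intervals were wide, such as the intergenic share of male control ZT0, 27.8% of 18 sites and 40% of 10. Requiring a −log10 q of at least 3 left 818 sites, with a median −log10 q of 5.87. All 1140 were found again from the peak lists, and 1121 had no peak of another library within 1 kb. Defining intergenic as over 1 kb from any RefSeq gene gave 918 sites of this library alone, 833 of them among the 1140. Added after seeing the data, shortening the list to the 1864 strongest peaks left 246. Within 5 kb of a TSS stood 14.3% and within 50 kb 78.5%, in place of 31.2% within 10 kb. Within 50 kb of each other stood 288 sites, in place of 123. Protein-coding genes nearest to a site numbered 477 within 100 kb, 175 within 10 kb, and 829 by the nearest RefSeq protein-coding gene body, a rule added after seeing the data. Within 10 kb, 2 glucose genes in place of 7 and 1 hepatocyte transcription factor gene in place of 2 were left, and the RefSeq rule gave 7 of the latter. No paired analysis was possible because each group has 1 library and no test was made. Read depth was not given, and its part in the calls was not tested. A site absent from another list may be bound there below its threshold, and no value is listed for it. Leaving out a replicate was not possible with 1 library per group.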
